A study of Mus musculus with 12 samples.

Results

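The interferon-inducible genes were described as a set of 41 genes, among the 20660 genes that the probes of the array could be matched to, in 12 mouse induced pluripotent stem (iPS) cell clones. The members were chosen by name as genes known to be induced by interferon, and Apol9a and Gbp2b were put on the list because they were already known to vary between the genotypes or the clone series. Their probes were in the fits over all probes and are counted below where they passed, but their values are a description and nothing is read from those calls. A probe was counted for a member when the transcript accession given for it in the files belonged to that gene. Of the 41 members, 38 had at least 1 probe, 49 probes in all, and no probe was matched to Oas1b, Mx1 or Mx2.

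The clones came from mouse embryonic fibroblasts reprogrammed with retroviruses, carried a Nanog-GFP reporter, were male and of a mixed C57BL6, DBA and 129S4 background, and were taken at passage 6. They had been grown on feeder cells and were then moved to gelatin with LIF and puromycin before the RNA was isolated. There were 6 Aid+/+ clones, in series 967B (967B2, 967B4 and 967B6) and 979B (979B1, 979B3 and 979B4), and 6 Aid-/- clones, in which Aid had been disrupted, in series 979F (979F1, 979F2 and 979F3) and a series of 981E1, 981E4 and 981E5. The 3 clones of a series have the same first 4 characters in their names, each clone was grown from a single colony and measured on 1 array, and values by clone are given below in this order of names. The last series is called the 981E1 series here. Slide 1 carried the 967B arrays, slide 2 the 979F arrays and slide 3 both 979B and the 981E1 series. Genotype, series and slide could therefore be separated only in part, since slide 3 held both genotypes and, by the names, so did experiment 979. The array has 2 Aid probes outside the deleted part, which per the study read a transcript driven by the inserted cassette. All 6 Aid-/- clones (0.67 to 2.90 and 0.68 to 2.57 on the log2 scale described below) were above all 6 Aid+/+ clones (-4.87 to -2.76 and -5.63 to -3.13), so no clone went against its genotype label. Nothing in the labels says that clones of a series came from separate embryos, so the p-values measure the spread between clones only.

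Interferons are secreted proteins that a cell releases when its sensors find viral nucleic acid. They bind receptors on the same cell and its neighbours, and through Janus kinases activate a complex that holds Stat2 and Irf9 and binds the interferon-stimulated response element (ISRE) and switches on antiviral genes. Type II interferon acts through another element, GAS, and induces guanylate-binding proteins, immunity-related GTPases and the genes of antigen processing. Pluripotent cells are known for a weak response to interferon, whereas fibroblasts respond well.

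The promoters of the members show the elements through which these genes are known to be switched on. Both elements were searched on both strands of the 300 bases around each start site in RefSeq (assembly GRCm38.p6, 250 bases before and 50 after), the ISRE as GAAA and GAAA with any 2 bases between them and GAS as TTC and GAA with any 3 bases between them, and overlapping matches were counted. Promoter sequences were found for 32 members. An ISRE match was present in 21 of the 32 (65.6%) and in 3.99% of all 27025 genes with a promoter sequence, and a GAS match in 10 of the 32 (31.2%) and in 9.55% of all. These are matches of letters and not measured binding. Shown here, 5′ to 3′ with the matches in capitals, are the promoters of Gbp2b (chr3:142594597-142594896, forward strand), which was found at a level above background in a single clone series, of its neighbour Gbp2 (chr3:142620413-142620712, forward strand), which was found in all clones, of the closely related genes Apol9a (chr15:77410985-77411284, reverse strand) and Apol9b (chr15:77728871-77729170, forward strand), of which the first was listed for its variation, of Ifit3 (chr19:34583279-34583578, forward strand), the member with the widest spread between series after Gbp2b, and of Irf1 (chr11:53769764-53770063, forward strand), which has a GAS match alone.

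Gbp2b: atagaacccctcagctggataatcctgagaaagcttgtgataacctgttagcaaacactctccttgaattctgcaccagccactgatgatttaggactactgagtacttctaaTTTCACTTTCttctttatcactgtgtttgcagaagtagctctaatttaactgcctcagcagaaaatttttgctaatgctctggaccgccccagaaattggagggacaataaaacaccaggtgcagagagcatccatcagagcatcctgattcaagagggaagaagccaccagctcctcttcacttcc

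Gbp2: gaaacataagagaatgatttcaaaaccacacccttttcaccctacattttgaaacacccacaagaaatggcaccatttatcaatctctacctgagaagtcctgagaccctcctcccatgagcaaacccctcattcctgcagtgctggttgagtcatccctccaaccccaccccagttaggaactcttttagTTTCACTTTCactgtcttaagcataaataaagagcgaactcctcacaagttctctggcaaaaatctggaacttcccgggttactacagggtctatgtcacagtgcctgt

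Apol9a: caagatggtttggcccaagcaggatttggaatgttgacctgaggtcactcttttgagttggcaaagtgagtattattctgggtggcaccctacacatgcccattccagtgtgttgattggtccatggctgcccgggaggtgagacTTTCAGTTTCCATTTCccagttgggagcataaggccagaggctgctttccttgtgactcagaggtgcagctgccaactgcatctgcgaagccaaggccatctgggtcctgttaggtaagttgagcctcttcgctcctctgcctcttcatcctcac

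Apol9b: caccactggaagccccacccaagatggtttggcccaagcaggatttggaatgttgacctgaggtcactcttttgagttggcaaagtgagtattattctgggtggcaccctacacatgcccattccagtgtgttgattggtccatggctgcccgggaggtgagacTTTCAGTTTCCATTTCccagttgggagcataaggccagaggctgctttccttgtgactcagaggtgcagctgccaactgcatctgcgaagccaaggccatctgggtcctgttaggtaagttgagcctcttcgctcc

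Ifit3: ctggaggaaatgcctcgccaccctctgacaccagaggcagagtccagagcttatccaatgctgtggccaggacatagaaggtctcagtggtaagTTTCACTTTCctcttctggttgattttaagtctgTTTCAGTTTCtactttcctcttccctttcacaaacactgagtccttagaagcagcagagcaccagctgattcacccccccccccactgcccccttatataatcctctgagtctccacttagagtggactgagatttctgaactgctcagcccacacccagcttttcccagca

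Irf1: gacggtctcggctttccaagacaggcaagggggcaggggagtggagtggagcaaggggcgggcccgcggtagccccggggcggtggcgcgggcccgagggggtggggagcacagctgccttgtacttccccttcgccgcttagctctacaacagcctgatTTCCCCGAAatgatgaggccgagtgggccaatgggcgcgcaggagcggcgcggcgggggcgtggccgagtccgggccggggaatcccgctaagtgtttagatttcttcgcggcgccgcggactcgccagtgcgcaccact

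The windows of Gbp2b and Gbp2 each held 1 ISRE match and no GAS match. In the windows of Apol9a and Apol9b, aligned on their ISRE matches, all 281 shared bases were identical. Their transcripts are similar as well, and without the probe sequences the signal of these 2 genes could not be told apart with certainty. The same holds for other members with close relatives, such as the Ifit, Oas, Gbp and Irgm families.

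Signals are given below as log2 normalised signal, on which 0 is the 75th percentile of an array and a difference of 1 is a doubling. A probe was taken as measured on an array where the scanner software marked it as well above background. A value without that mark is a background reading, at about -7 for an empty spot. Of the 38 members with a probe, 25 had a probe well above background on all 12 arrays, 11 on some arrays and 2, Irf7 and Ifi44, on none. By probe, all 12 arrays gave a signal well above background for 28 of 49 and at least 1 array did for 43. Between 31698 and 33662 probes were well above background per array, no spot was saturated, and precision is set by how many arrays there were. All 8 pluripotency markers, among them Pou5f1, Nanog and Sox2, were well above background on every array, as were 3 of 7 immune cell markers, Cd74, Cd3e and Itgam. The other 4, among them Ptprc and Lyz2, were on no array.

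**Figure D1:**
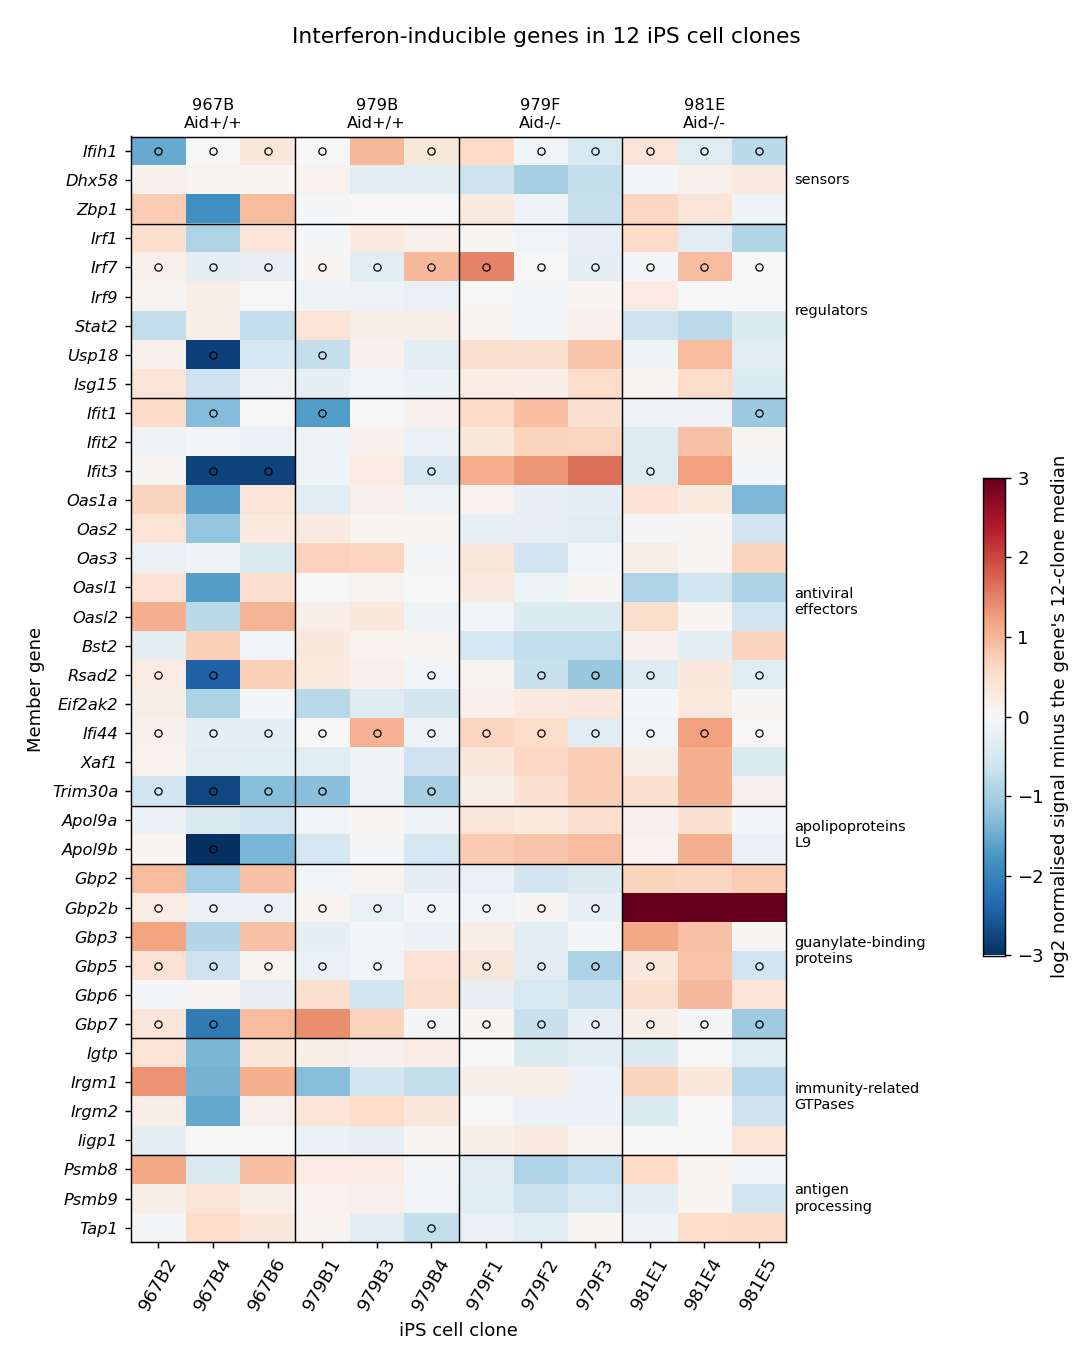
The colour shows the log2 normalised signal of each member gene (rows, by role) in each clone (columns, by series) minus the median of that gene over the 12 clones, and circles mark readings that were not well above background. The colour scale stops at 3 in both directions, which Gbp2b in the 981E1 series and Apol9b in 967B4 exceed, and 967B4 was the lowest clone in 14 of the 28 probes measured on all arrays.

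Markers of fibroblasts, the cells the clones were made from and, as feeder cells, were grown on, were present in all clones but at different levels, and they moved with several members. The summed normalised signal of 8 fibroblast markers, Col1a1, Col1a2, Col3a1, Thy1, Pdgfrb, Postn, Lum and Dcn (1 probe a gene, 1 being the 75th percentile of the array), was 13.6, 1.81 and 6.70 in 967B, 11.3, 16.9 and 11.6 in 979B, 22.7, 29.4 and 32.6 in 979F and 17.4, 26.1 and 13.2 in the 981E1 series. It was lowest in 967B4 and highest in the 3 clones of 979F and in 981E4, and the Aid-/- clones (13.2 to 32.6) overlapped the Aid+/+ clones (1.81 to 16.9). All arrays gave a signal well above background for 4 of these markers and no array did for Lum, and Col1a2 read -3.79 in 967B4 and between 0.75 and 3.84 in the other clones. In RNA from a whole dish, fewer cells of a type and less RNA per cell cannot be told apart. The summed signal of the 8 pluripotency markers ran the other way, from 714 in 979F3 to 1030 in 967B4. That of 8 markers of differentiated lineages, among them Gata4, Tubb3 and Acta2, went partly with the fibroblast markers. It was lowest in 967B4 (3.78) and highest in the 3 clones of 979F (up to 10.1 in 979F2), but 967B2 (7.99) was above 981E4 (7.54). Members were set beside the fibroblast markers alone, and whether their order is particular to fibroblasts was not tested. The fibroblast marker level was added as a covariate in refits chosen after seeing the data. Its sum was high in all of 979F, which was alone on slide 2, so these refits cannot separate it from series or slide. The part of the fibroblast markers in the results below was not tested otherwise, and the members are set beside the marker levels further on.

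Between the genotypes, 1 of the 49 member probes was called by limma at an adjusted p under 0.05 and a fold over 2, where 0.0341% of all 55681 probes were. It was a probe of Apol9a, a gene listed because it was known to vary, so nothing is read from that count. At an unadjusted p under 0.05 there were 14 of the 49 member probes and 7570 of all 55681 probes. The median size of the difference between genotypes was 0.285 on the log2 scale over the member probes and 0.172 over all probes. In 2 member probes, of Apol9a and Trim30a, the clones of the 2 genotypes did not overlap, as was so in 2.18% of all probes. The call was lost without any 1 of 7 clones (967B6, 979B1, 979B4, 979F1, 979F2, 979F3 or 981E4), without 967B4 and 981E5 together, with the fibroblast marker level as a covariate, and with slide or clone series as a random block.

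**Figure D2:**
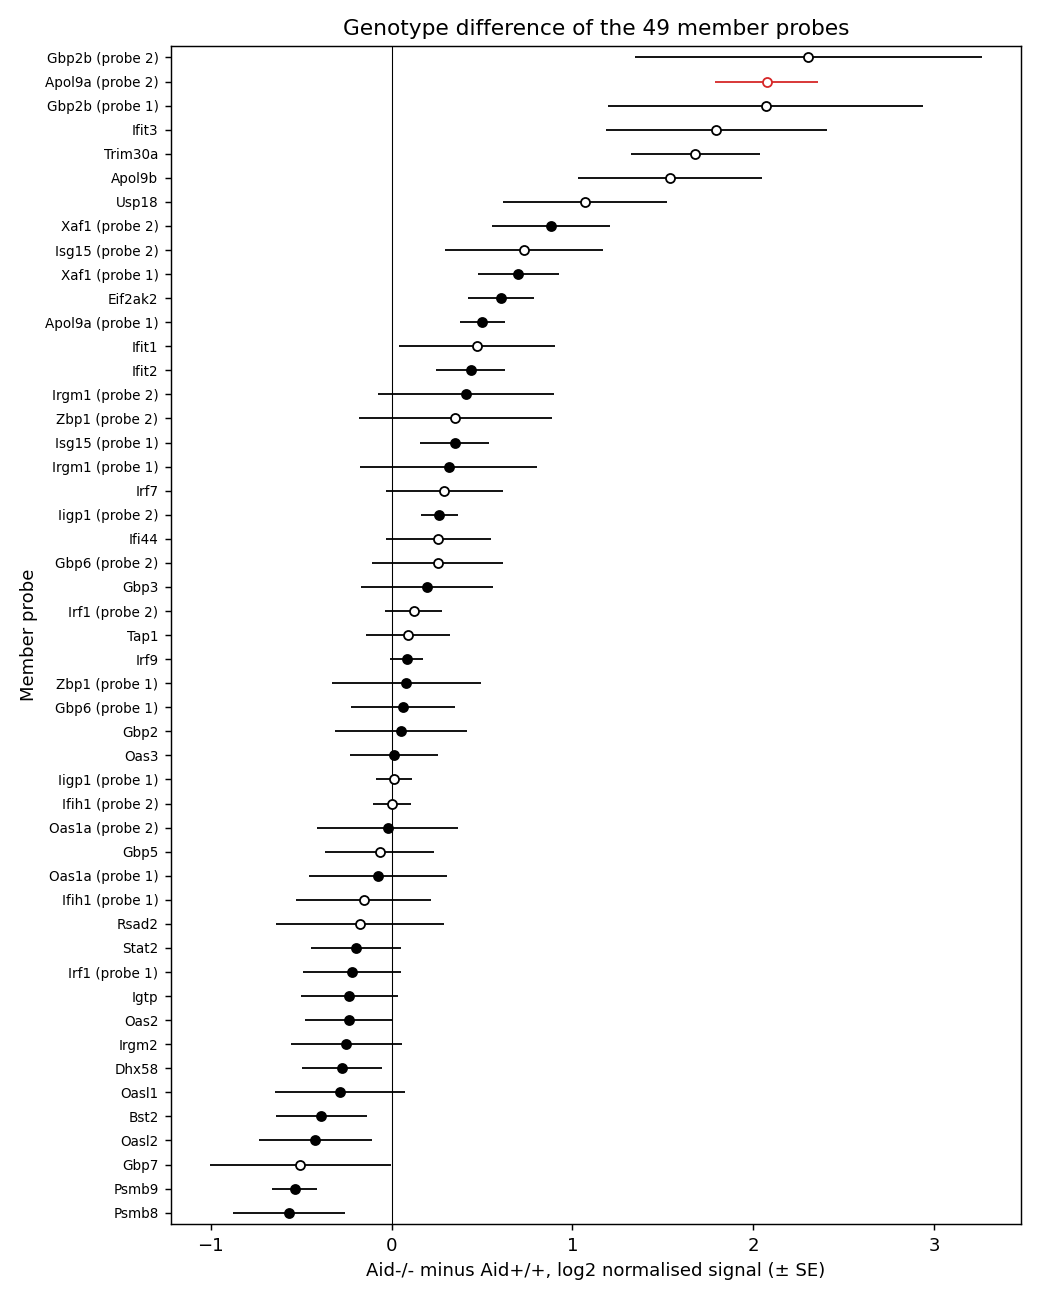
Each point is the difference of a member probe between Aid-/- and Aid+/+ clones on the log2 scale, with its standard error from limma over 6 and 6 clones. Filled points are probes well above background on all arrays, the red point is the Apol9a probe past both thresholds, and probes of one gene are numbered from the smaller difference.

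Between the 4 clone series, 4 of the 49 member probes passed limma's F-test at an adjusted p under 0.05, which is 8.16%, where 4.16% of all probes did. They were the probe of Dhx58, the dimmer probe of Apol9a and both probes of Gbp2b, so that outside the 2 genes listed for their variation only Dhx58 passed. The call of Dhx58 was lost in 7 of the 12 fits that left out 1 clone (967B6, 979B3, 979F1, 979F2, 979F3, 981E4 or 981E5). The median range of the 4 series means was 0.826 over the member probes and 0.478 over all. Among probes well above background on all arrays, 1 of 28 member probes (3.57%) and 5.95% of all 28340 passed, with median ranges of 0.786 and 0.423. Fitted on these probes alone, 4 of 28 and 16.2% of all passed. Without 967B4, 10 member probes passed, adding Stat2, Oasl1, Eif2ak2, Trim30a, Gbp2 and Psmb8, and 8.64% of all probes. Without 967B2, 7 passed, adding Ifit3, Trim30a and Apol9b, and 3.44% of all probes. With the fibroblast marker level as a covariate, 8 passed, and 5.77% of all probes. These 8 were the probes of Stat2, Eif2ak2, Trim30a, Gbp2 and Irgm2, the brighter probe of Irgm1 and both of Gbp2b. The probes of Dhx58 and Apol9a did not pass.

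**Figure D3:**
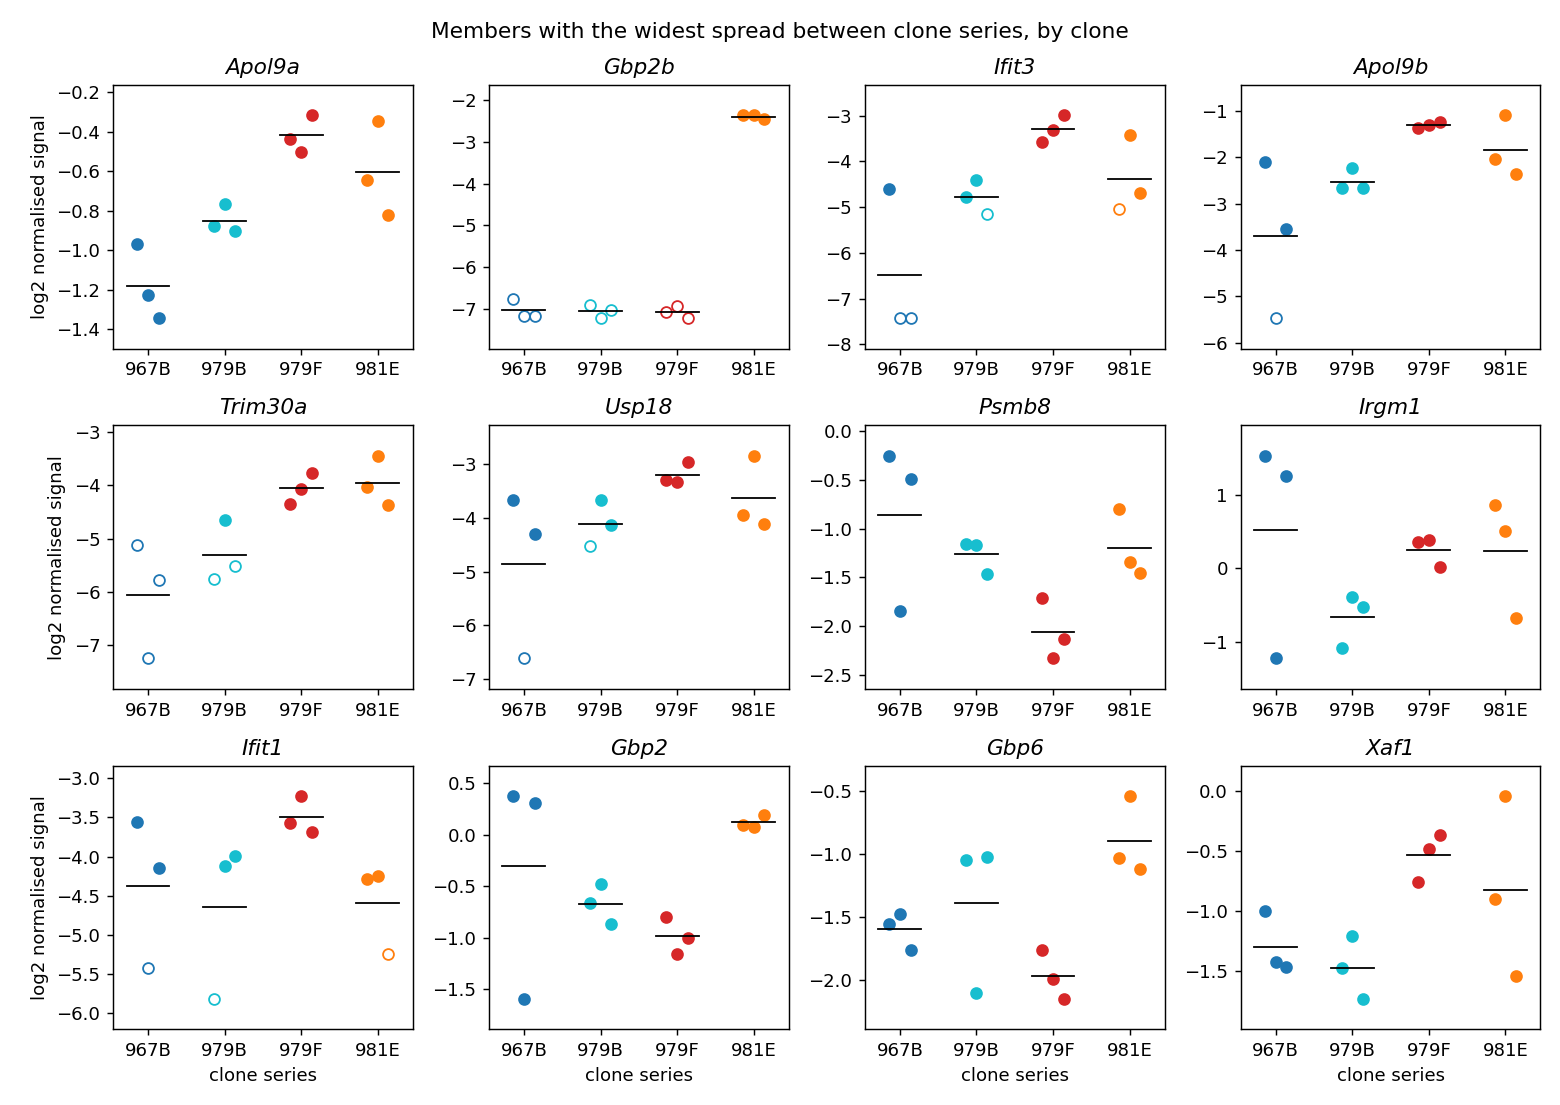
The log2 normalised signal of the members with the widest range between series is plotted for each clone, with lines for the mean of each series and open symbols for readings not well above background. The Gbp2b clones of the 981E1 series lie between -2.46 and -2.36 and all others below -6.7, while 967B4 is the lowest clone of Ifit3, Apol9b, Trim30a, Usp18, Irgm1 and Gbp2.

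Among the sensors, Dhx58 differed between series, Zbp1 was low in a single clone and Ifih1 was dim. Dhx58 codes for Lgp2, a relative of the RNA sensors that has no signalling domain. It read -2.14, -2.18 and -2.21 in 967B, -2.16, -2.61 and -2.57 in 979B, -2.88, -3.25 and -2.98 in 979F and -2.31, -2.10 and -1.99 in the 981E1 series. All 3 clones of 979F were below every other clone, and the F-test over series gave an adjusted p of 0.0291 in limma with a range of series means of 0.91, a call that was lost without any 1 of the 3 clones of 979F and without 4 other clones. Zbp1, a sensor of nucleic acids in the Z form, had series means of -0.73 ± 1.56 (SD, n = 3 here and below) in 967B, -0.71 ± 0.03 in 979B, -0.87 ± 0.48 in 979F and -0.40 ± 0.39 in the 981E1 series. The wide SD of 967B came from 967B4, which read -2.52 against 0.08 and 0.26 in the other clones of its series, and a second probe repeated this with -5.67, not above background, against -2.12 and -2.29. Ifih1, the sensor of long double-stranded RNA, was well above background only in 979B3 (-4.40) and 979F1 (-4.81), and its other probe on no array.

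Among the regulators, Irf1, Irf9 and Stat2 were measured in all clones, and the feedback protein Usp18 had the widest range of series means. Irf1, an early induced transcription factor, had means of 3.78 ± 0.79 in 967B, 3.94 ± 0.17 in 979B, 3.70 ± 0.14 in 979F and 3.59 ± 0.74 in the 981E1 series, with its lowest values in 967B4 (2.88) and 981E5 (2.91). Irf9, the DNA-binding subunit of the type I complex, was steady at 1.08 ± 0.10, 0.82 ± 0.05, 0.99 ± 0.05 and 1.07 ± 0.13 in the same order. Stat2, its partner, had means of 1.08 ± 0.53, 1.77 ± 0.13, 1.55 ± 0.11 and 0.90 ± 0.20. In contrast to Zbp1 and Irf1, Stat2 was higher in 967B4 (1.69) than in its series mates (0.76 and 0.78). The series means of Stat2 did not pass the F-test (adjusted p = 0.121 in limma) but did without 967B4.

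Isg15, a ubiquitin-like protein that is joined to other proteins, had means of -0.32 ± 0.50, -0.37 ± 0.09, 0.14 ± 0.20 and -0.12 ± 0.48. Usp18, which removes Isg15 and damps signalling at the receptor, read -3.67, -6.61 and -4.31 in 967B, -4.52, -3.67 and -4.14 in 979B, -3.30, -3.33 and -2.97 in 979F and -3.94, -2.85 and -4.12 in the 981E1 series. The values of 967B4 and 979B1 were background readings, and 981E4 and the 3 clones of 979F were the highest. The genotype difference of Usp18 was 1.07 ± 0.45 (SE) with an adjusted p of 0.329 in limma, and the clones of the genotypes overlapped. Irf7, the factor that amplifies the type I response, was on no array well above background.

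Among the antiviral effectors, several were highest in the clones of 979F and in 981E4, and several were lowest in 967B4. Ifit1, Ifit2 and Ifit3 belong to a family that acts against viral RNA. Ifit3 read -4.61, -7.43 and -7.42 in 967B, -4.78, -4.40 and -5.14 in 979B, -3.57, -3.32 and -2.99 in 979F and -5.04, -3.41 and -4.68 in the 981E1 series, of which 967B4, 967B6, 979B4 and 981E1 were not well above background. The 4 highest clones were those of 979F and 981E4. Its genotype difference was 1.79 ± 0.61 (adjusted p = 0.226 in limma) and its range of series means 3.19 (adjusted p = 0.0903). Ifit1 read -3.56, -5.43 and -4.14 in 967B, -5.82, -4.13 and -4.00 in 979B, -3.57, -3.23 and -3.69 in 979F and -4.28, -4.24 and -5.25 in the 981E1 series, with background readings in 967B4, 979B1 and 981E5, and its series overlapped. Ifit2 had means of -3.62 ± 0.07, -3.57 ± 0.16, -2.97 ± 0.20 and -3.34 ± 0.64.

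Trim30a, a tripartite motif protein that restrains signalling downstream of Toll-like receptors, did not overlap between the genotypes, as was so in 2.18% of all probes. It read -5.12, -7.25 and -5.79 in 967B, -5.77, -4.66 and -5.52 in 979B, -4.34, -4.06 and -3.77 in 979F and -4.04, -3.44 and -4.37 in the 981E1 series. All 6 Aid-/- clones were above all 6 Aid+/+ clones, of which only 979B3 was well above background. The difference was 1.68 ± 0.36, with an adjusted p of 0.0931 in limma, and so was not called. Within experiment 979 it was 1.26 and within slide 3 it was 1.37, neither of them called, with adjusted p of 0.28 and 0.17 in limma. These sizes rest on background readings in the Aid+/+ clones other than 979B3 and are not exact.

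Xaf1, a protein that promotes cell death, read -1.00, -1.42 and -1.47 in 967B, -1.48, -1.21 and -1.73 in 979B, -0.75, -0.49 and -0.37 in 979F and -0.90, -0.04 and -1.54 in the 981E1 series. By this brighter probe its 4 highest clones were again those of 979F and 981E4, while 981E5 was among the lowest. The genotype difference was 0.70 ± 0.22 (adjusted p = 0.20 in limma), and 0.88 ± 0.33 in its other probe. In that other probe 981E1 (-1.95) was above 979F2 (-2.12) and 979F3 (-2.09), so the order of the highest clones was not repeated. Eif2ak2, the kinase PKR that stops translation on double-stranded RNA, had means of -1.06 ± 0.59, -1.40 ± 0.23, -0.55 ± 0.09 and -0.70 ± 0.17, and a genotype difference of 0.60 ± 0.18 (adjusted p = 0.181).

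The 2′-5′ oligoadenylate synthetases make the messenger that activates an RNA-cutting enzyme, and Oasl1 is a relative that has lost that activity. The brighter Oas1a probe had means of 1.93 ± 1.26, 2.01 ± 0.24, 1.98 ± 0.22 and 1.91 ± 0.99, with 967B4 at 0.48 and 981E5 at 0.77 against at least 1.78 in the other 10 clones. Oas2 had means of -0.79 ± 0.88, -0.49 ± 0.12, -0.92 ± 0.06 and -0.83 ± 0.34. Oas3 had means of -3.74 ± 0.17, -3.06 ± 0.42, -3.59 ± 0.46 and -3.18 ± 0.33. In Oas3 the clone 967B4 did not stand apart from its series. Oasl1 had means of -1.58 ± 1.23, -1.31 ± 0.04, -1.29 ± 0.21 and -2.17 ± 0.20, and Oasl2 of -0.03 ± 1.07, -0.33 ± 0.23, -0.76 ± 0.20 and -0.45 ± 0.57. The SD of 967B was the widest of the 4 series in Oas1a, Oas2, Oasl1 and Oasl2.

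Bst2, or tetherin, which holds budding virus on the cell surface, had means of 4.75 ± 0.54, 4.80 ± 0.13, 3.96 ± 0.12 and 4.80 ± 0.46. It was highest in 967B4 (5.36) and 981E5 (5.29) and lowest in the 3 clones of 979F. Rsad2, or viperin, was well above background in 5 clones, between -4.62 and -3.98, and read -7.11 in 967B4. Ifi44, whose function is little known, was on no array well above background.

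The apolipoproteins L9 are a pair of mouse genes induced by interferon. Apol9b read -2.10, -5.47 and -3.54 in 967B, -2.67, -2.23 and -2.67 in 979B, -1.38, -1.31 and -1.24 in 979F and -2.05, -1.10 and -2.36 in the 981E1 series. Only 967B4 was not well above background, and the 4 highest clones were those of 979F and 981E4. The genotype difference was 1.54 ± 0.51 (adjusted p = 0.214 in limma) and the clones of the genotypes overlapped. The brighter probe of Apol9a read -0.97, -1.22 and -1.34 in 967B, -0.88, -0.77 and -0.90 in 979B, -0.44, -0.50 and -0.32 in 979F and -0.64, -0.35 and -0.82 in the 981E1 series. Its dimmer probe, the one past both thresholds, read -6.48, -7.29 and -7.29 in 967B, -6.82, -5.54 and -6.68 in 979B, -4.89, -4.19 and -4.35 in 979F and -5.11, -4.76 and -4.36 in the 981E1 series. Of the Aid-/- arrays 4 of 6 gave a signal well above background there (979F2, 979F3, 981E4 and 981E5), and no Aid+/+ array did. As a description, the Aid-/- clones were higher by 0.50 on the log2 scale by the brighter probe, and for the dimmer probe no size is given, since the Aid+/+ values are background readings.

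In the guanylate-binding proteins, large GTPases that attack the vacuoles of intracellular parasites and bacteria, Gbp2b stood apart. Its probe A_55_P2097219 read -6.76, -7.17 and -7.16 in 967B, -6.90, -7.22 and -7.03 in 979B, -7.07, -6.94 and -7.22 in 979F and -2.36, -2.36 and -2.46 in the 981E1 series. Its probe A_51_P398766 read -2.50, -2.59 and -3.23 in the 981E1 series and between -7.16 and -6.66 elsewhere. Both were well above background on the 3 arrays of the 981E1 series and on none of the other 9. Over the lowest signal that was well above background on each of those 9 arrays, the 981E1 series was at least 15.9-fold higher by the first probe and at least 12.2-fold by the second. The series 979B, on the same slide as the 981E1 series, and 979F, of the same genotype, both read background. The fibroblast marker sum of the 981E1 series (13.2 to 26.1) lay within the range of the other series. The cause of the Gbp2b signal in the 981E1 series was not tested.

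The neighbouring gene Gbp2 read 0.38, -1.59 and 0.31 in 967B, -0.66, -0.48 and -0.87 in 979B, -0.80, -1.15 and -1.00 in 979F and 0.10, 0.07 and 0.19 in the 981E1 series. It was measured in all clones, and the 981E1 series was above 979B and 979F in every clone but overlapped 967B. Gbp3 had means of -2.32 ± 1.11, -2.88 ± 0.13, -2.78 ± 0.27 and -2.03 ± 0.59. Gbp6 read -1.56, -1.48 and -1.76 in 967B, -1.05, -2.11 and -1.02 in 979B, -1.77, -2.00 and -2.15 in 979F and -1.03, -0.54 and -1.12 in the 981E1 series. All 3 clones of 979F were below all 3 of the 981E1 series (difference -1.08, adjusted p = 0.072 in limma). This difference was called without 979B3, with an intensity trend and robust estimation, and among probes well above background on every array. Gbp5 was well above background in 979B4 (-4.81) and 981E4 (-4.38), and Gbp7 in 967B6 (-3.89), 979B1 (-3.44) and 979B3 (-4.17).

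Of the immunity-related GTPases, which act on the same vacuoles, Irgm1 varied most. Irgm1 read 1.54, -1.23 and 1.26 in 967B, -1.09, -0.39 and -0.52 in 979B, 0.36, 0.39 and 0.01 in 979F and 0.86, 0.51 and -0.68 in the 981E1 series. Its range within 967B was wider than the 1.19 between series means (adjusted p = 0.615 in limma), and a second probe gave the same order of series means at its ends, from -1.96 in 967B to -3.17 in 979B. Without 967B4, the brighter Irgm1 probe was lower in 979B than in 967B and passed both thresholds in that contrast, while the second probe was not called. Igtp had means of -0.01 ± 1.00, 0.38 ± 0.05, -0.06 ± 0.22 and -0.04 ± 0.23. Irgm2 had means of -2.55 ± 0.99, -1.73 ± 0.10, -2.29 ± 0.11 and -2.49 ± 0.32. Iigp1 was steadier, with means of -0.82 ± 0.15, -0.85 ± 0.16, -0.55 ± 0.09 and -0.59 ± 0.25 by its brighter probe, and its other probe was on no array well above background.

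In antigen processing, the immunoproteasome subunits Psmb8 and Psmb9 had their lowest series means in 979F. Psmb8 read -0.25, -1.84 and -0.49 in 967B, -1.15, -1.17 and -1.46 in 979B, -1.71, -2.33 and -2.13 in 979F and -0.80, -1.34 and -1.46 in the 981E1 series. Psmb9 had means of 0.37 ± 0.12, 0.18 ± 0.12, -0.38 ± 0.14 and -0.14 ± 0.31, a genotype difference of -0.54 ± 0.12 (adjusted p = 0.109 in limma) in the direction opposite to Ifit3 and Apol9b, and overlapping genotypes. Neither was called between the genotypes. Psmb9 was highest in 967B4 (0.51), while Psmb8 in 967B4 was below both of its series mates. Tap1, a subunit of the peptide transporter, lay between -5.05 and -3.77 and was well above background in every clone except 979B4.

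Clone 967B4 stood apart from its series over the members as a whole. Of the 28 member probes well above background on all arrays, 967B4 was the lowest of the 12 clones in 14, where it was the lowest in 11.7% of all 28340 such probes. It was more than 2-fold below both of its series mates in 14 of the 28 (4.66% of all such probes) and more than 2-fold above both in 0 (2.91%). Its median difference from the mean of its series mates was -1.19 over the member probes and 0.05 over all. The members low in 967B4 came from several groups, such as Zbp1, Irf1, Oas1a, Igtp and Irgm1, and those that were not low there included Irf9, Stat2, Bst2, Dhx58, Oas3, Iigp1 and Psmb9. Next came 981E5, more than 2-fold below both mates in 5 of the 28 (1.09% of all), with a median difference of -0.40. The other 10 clones were that far below in at most 1 probe. The fibroblast marker sum was also lowest in 967B4 of all clones and in 981E5 of its series. The same held for the sum of the differentiated lineage markers. The part of either level in the low members was not tested.

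**Figure D4:**
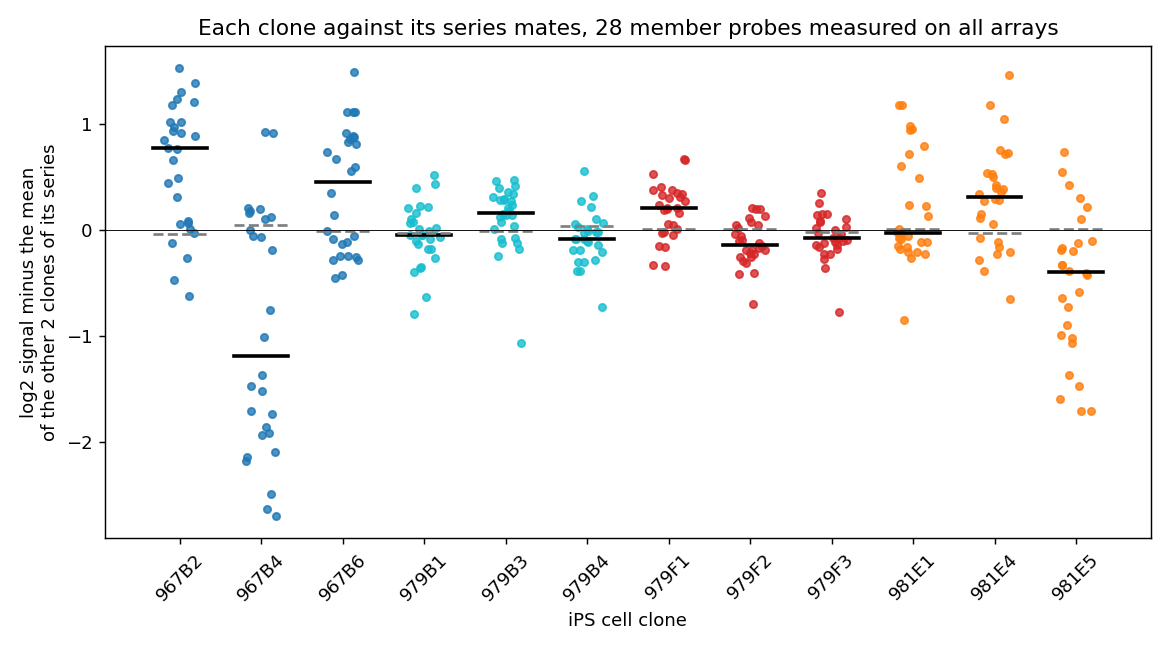
Each point is 1 of the 28 member probes well above background on all arrays, as the log2 signal of a clone minus the mean of the other 2 clones of its series. Black lines are medians over the member probes and dashed grey lines medians over all 28340 such probes, and the black line of 967B4 lies at -1.19 with its grey line at 0.05.

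Set beside the fibroblast markers, the members showed more than 1 order of clones. The 4 clones with the highest fibroblast marker sum (the 3 of 979F and 981E4) were also the 4 highest clones in 7 of the 43 member probes well above background on at least 1 array (16.3%), as in 1.71% of all 39192 such probes. These were the probes of Ifit2, Ifit3, Usp18 and Apol9b, the brighter probes of Apol9a and Xaf1 and the dimmer probe of Isg15. The clone with the lowest sum, 967B4, was the lowest clone in 23 of the 43 (53.5%), as in 13.1% of all. Zbp1, Oas1a, Oasl2, Irgm1, Gbp2 and Psmb8 were low in 967B4 but highest in 967B2 or 967B6, whose sums of 13.6 and 6.70 were below those of 979F. Both features were found together in 4 of the 43 (9.3%) and in 1.25% of all. The 4 clones with the highest sum are all Aid-/- and include the whole of 979F, which was alone on slide 2. Marker level, genotype, series and slide can therefore not be told apart in these counts. The points also share the array and its scaling, and the order is a description of 12 clones.

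**Figure D5:**
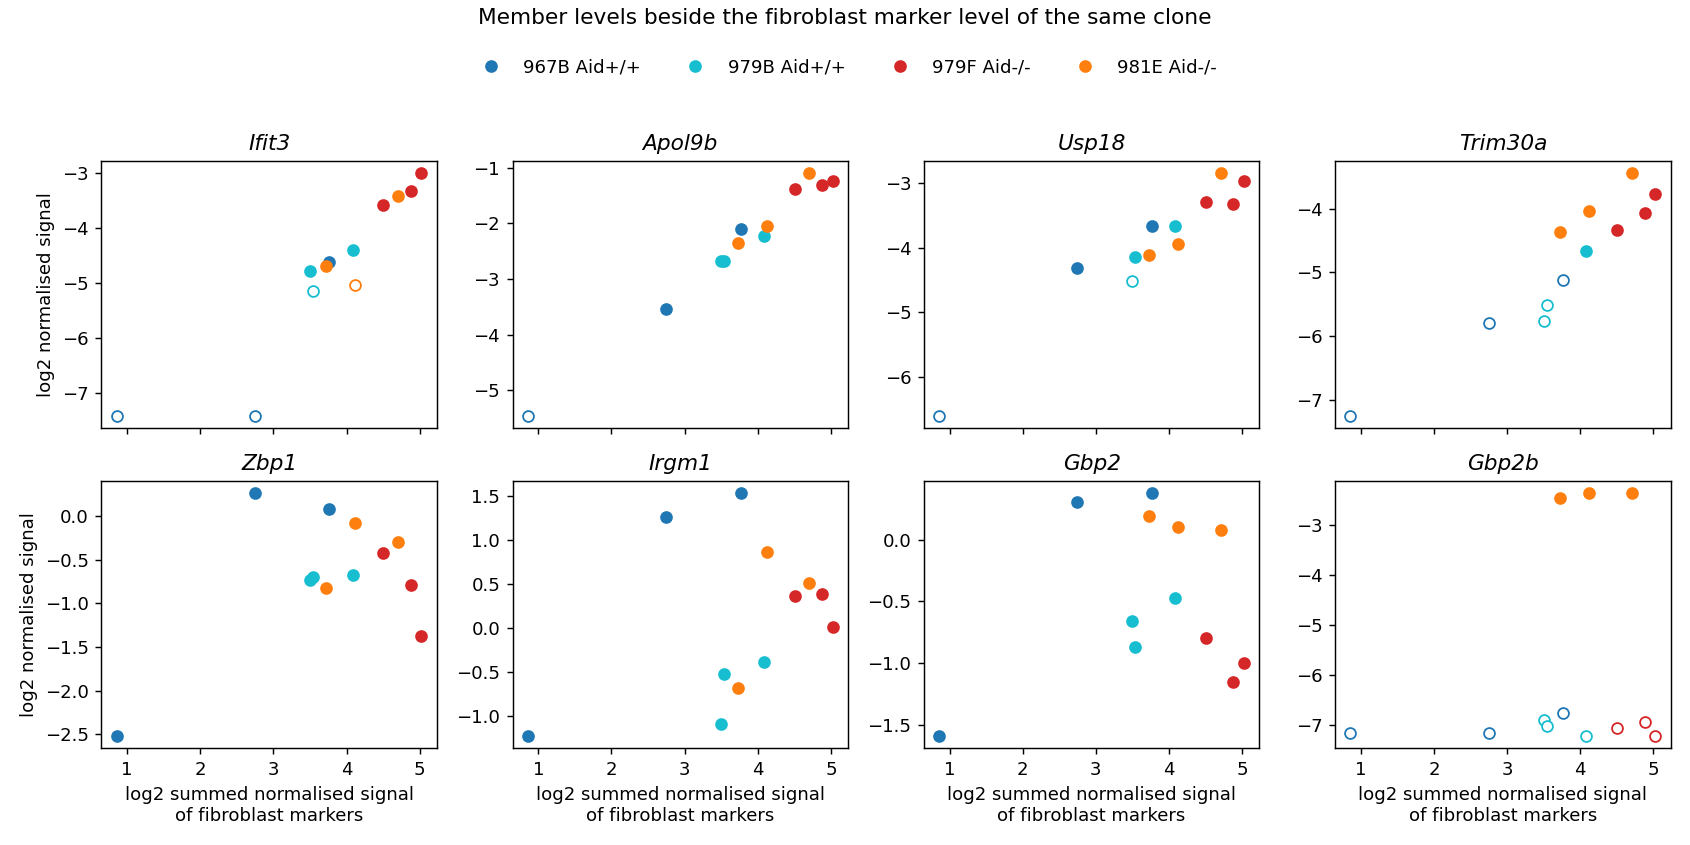
The log2 normalised signal of 8 members (vertical axis, 1 panel a gene) is plotted against the log2 summed normalised signal of the fibroblast markers in the same clone, with open symbols for readings not well above background. Ifit3, Apol9b and Usp18 are highest in the 4 clones with the highest marker sums. For Trim30a, 981E1 (-4.04) lies above 979F1 (-4.34) and 979F2 (-4.06), whose sums are higher. Zbp1, Irgm1 and Gbp2 are not highest where the markers are high. Gbp2b is high in the 3 clones of the 981E1 series at sums that other series reach as well.

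In the contrasts between single series, few member probes passed both thresholds in limma. Within the wild type, 979B against 967B, 0 of 49 were called and 0.505% of all probes were. At an unadjusted p under 0.05 there were 5 of 49 member probes and 5849 of all 55681. The number called was also 0 with an intensity trend and robust estimation. Without 967B4 it was 3 (1.4% of all probes), with Stat2 higher and Gbp2 and the brighter probe of Irgm1 lower in 979B. Without 967B2 it was 1, Ifit3, where 0.388% of all probes were called. Within the Aid-/- clones, 979F against the 981E1 series, 2 of 49 were called and 1.72% of all probes were. Both were probes of Gbp2b, lower in 979F and listed for that variation, so nothing is read from the count. Dhx58 differed by -0.91 there with an adjusted p of 0.019, under the fold of 2. These contrasts share clones with those that follow.

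Genotype was compared within experiment 979 (979F against 979B) and within slide 3 (the 981E1 series against 979B). In experiment 979, 0 of 49 member probes were called and 0.424% of all were. At an unadjusted p under 0.05 there were 9 of 49 member probes and 8111 of all 55681. The number called was also 0 with an intensity trend and robust estimation. Without 967B4 or without 979B3 it was 1 (1.09% and 0.178% of all probes), in both the dimmer probe of Apol9a. On slide 3, 3 of 49 were called, all higher in the 981E1 series, against 2.13% of all probes: the dimmer probe of Apol9a and both of Gbp2b, which were listed for their variation. The genotype effect in experiment 979 (979F minus 979B) and that in the other clones (the 981E1 series minus 967B) differed at an adjusted p under 0.05 in 2 of 49 member probes, both of Gbp2b and so fixed by the choice of the gene, and in 0.106% of all.

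The other genes of the interferon pathway were taken from a list of 75 genes outside the members, of which 74 had a probe, 98 probes in all, and 75 of these were measured on all arrays. Of the 98, 0 were called between genotypes in limma, and also 0 with an intensity trend and robust estimation. At an unadjusted p under 0.05 there were 22 of the 98 and 7570 of all 55681 probes. Over the clone series 4 of 98 passed the F-test (4.08%), close to the 4.16% of all probes. Without 967B4 it was 10, where 8.64% of all probes passed. Without any 1 of 979B1, 979B3, 979F2 or 979F3 it was 2, where 1.38% to 1.82% of all did. The median range of series means was 0.518 over these probes. Of 4 ligands 3, Ifnb1, Ifng and Ifne, were on no array well above background, whereas all 11 probes of the receptors and kinases were on every array. The genes that passed were Isg20, Irf2 and Adar.

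Isg20, a nuclease that degrades viral RNA, was high in the 981E1 series by both probes. Its brighter probe read -0.73, -1.16 and -0.88 in 967B, -1.27, -1.27 and -1.54 in 979B, -1.04, -1.46 and -1.29 in 979F and -0.04, 0.30 and 1.24 in the 981E1 series (adjusted p = 0.0181 in limma), and all 3 clones of the 981E1 series were above the other 9. Irf2, a factor that competes with Irf1, read -5.08, -5.75 and -5.31 in 967B, -5.07, -4.69 and -5.26 in 979B, -3.92, -4.05 and -3.81 in 979F and -4.61, -3.83 and -4.52 in the 981E1 series (adjusted p = 0.030). Of the Aid+/+ clones only 979B3 was well above background for Irf2, and the genotype difference of 1.07 ± 0.20 was not called (adjusted p = 0.0653). Its size rests on background readings in the other Aid+/+ clones and is not exact. Adar, an enzyme that edits double-stranded RNA, was lowest in the 981E1 series by 1 of its 2 probes, with a mean of 1.07 ± 0.16 against 1.53 ± 0.10, 1.64 ± 0.06 and 1.81 ± 0.03 in 967B, 979B and 979F (adjusted p = 0.0243 in limma). Its other probe did not show this, with the highest mean in the 981E1 series (0.67 ± 0.15).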

How the data were processed

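The members and the lists of other genes were chosen with earlier results of these data known. One 1-colour array was used per clone. The authors deposited a table of spot intensities per array, which Agilent's Feature Extraction 10.7.3.1 had corrected for background and spatial trend but not normalised between arrays, with spot and local background median intensities and other columns holding flags scored 0 or 1. The log2 values they deposited have their 75th percentile near 0 on every array and served as an alternative scaling. From the processed intensities log2 was taken, control spots and outlier spots were left out, spots of a probe were averaged, and each array's 75th percentile was subtracted. Genes were named from transcript accessions through RefSeq (GRCm38.p6), without positions, since the array design used mm9, and 27235 probes were named.

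All 55681 non-control probes were fitted with limma 3.58.1 (R 4.3.3; lmFit and eBayes) and p-values were adjusted after Benjamini and Hochberg. Genotypes were compared over 6 and 6 clones, series in a fit with 1 mean per series (F-test and contrasts). A call needed an adjusted p under 0.05 and, for single contrasts, a fold over 2. The fits were tested on simulated data. Each member gene with a probe well above background on all arrays is given by series, and Apol9a, Gbp2b and the 10 other members with the widest range of series means by clone, and so is Dhx58, the other member past the F-test. Where a gene had several probes, the one with the highest mean is described. Pathway genes past the genotype comparison or the F-test are named. The level of a series not measured on any array is given as a bound, the mean of the brighter series over the mean of the higher of the probe's signal and the lowest signal well above background on each array of the dimmer one. The alternatives were normexp background correction with an offset of 50, quantile normalisation, the percentile over detected probes, the methods' t-test, 2 filters on dim probes, the deposited values, a trend with robust estimation, slide or series as a block, single experiments or slides, other thresholds and leaving out each clone. Leaving out 967B4 and 981E5 together and adding the fibroblast marker level as a covariate were chosen after seeing the data. Python 3.11.15 was used for descriptions and plots.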

Additional observations from a re-analysis of the deposited data

Results flagged for a closer look

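Outlying clones were looked for in each genotype of 6 clones by the gap of the lowest or highest clone to its nearest neighbour over the range, against Dixon's 95% critical value for a group of that size. Of 82 groups with at least 1 array well above background, 11 had an outlying clone. By the critical value alone about 1 in 20 groups, here 4.1, would, were the groups independent, but they reuse the same 12 arrays. The rule was not run over all probes, so 11 is not read as an excess in the members. Over all 28340 probes well above background on every array, 967B4 was the lowest clone in 11.7% and the highest in 21.5%. In 9 of the 11 the clone was 967B4, and all 9 were low. The values were -2.52 and -5.67 for the 2 probes of Zbp1, 2.88 for Irf1, -6.61 for Usp18, -1.80 for Oas2, -3.00 for Oasl1, -7.11 for Rsad2, -1.17 for Igtp and -3.68 for Irgm2. The next lowest Aid+/+ clone read -0.74, -2.80, 3.77, -4.52, -0.57, -1.34, -4.76, 0.33 and -2.00 in the same order. Those of Zbp1 (the dimmer probe), Usp18 and Rsad2 in 967B4 were not well above background. Among Aid-/- clones, Irf9 was high in 981E1 (1.22, the others up to 1.05), and the dimmer probe of Isg15 was low in 981E5 (-5.78, a background reading, the others at least -4.60).

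The difference between genotypes was not the same in experiment 979 and in the other clones for Gbp2b, by -4.21 on the log2 scale in probe A_51_P398766 and by -4.66 in probe A_55_P2097219 (experiment 979 minus the others). Gbp2b was listed for its variation, so this is a description. The sizes rest on background readings in 9 clones and are not exact.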

How the results depend on the processing

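Counts of member probes called in limma moved with the processing as follows, and the cause was not tested. The share of all fitted probes called in the same setting is given in brackets, and it moved as well. Between genotypes the 1 call (0.0341%) became 0 with normexp background correction (0.0341%). The count was also 0 with probes well above background on all arrays (0.173%), a filter that leaves out the called probe. It also became 0 with slide (0.0162%) or clone series (0.0108%) as a random block and in experiment 979 alone (0.415%). The same was so without 967B4 and 981E5 (0.0593%) and with the fibroblast marker covariate (0.0162%). It became 3 with slide as a fixed block (2.13%), where the estimate comes from slide 3, and 2 in slide 3 alone (1.24%). Leaving out 1 clone gave 0 to 1 (0.0108% to 0.0593%). Over clone series the 4 calls (4.16%) became 9 with normexp (7.29%), 17 without 967B4 and 981E5 (8.77%) and 8 with the covariate (5.77%). They became 3 to 10 leaving out 1 clone (1.38% to 8.64%). For 979B against 967B the 0 calls (0.505%) became 5 without the 2 clones (1.95%) and 3 with the covariate (1.01%). They became 0 to 3 leaving out 1 clone (0.246% to 1.4%). For 979F against the 981E1 series there were 2 calls (1.72%), both of Gbp2b. With probes well above background on all arrays, which leaves out Gbp2b, the calls became 1 (3.09%), of Gbp6. They became 4 without the 2 clones (1.59%), and 2 to 3 leaving out 1 (0.44% to 2.77%). In experiment 979 the 0 calls (0.424%) became 1 with probes well above background on at least 1 array (0.774%) and 1 without the 2 clones (1.6%). They became 0 to 1 leaving out 1 (0.0934% to 1.09%). On slide 3 the 3 calls (2.13%) became 1 with normexp (0.735%). They became 0 with probes well above background on all arrays (3.31%), a filter that leaves out all 3. They became 6 without the 2 clones (2.61%) and 5 with the covariate (2.69%), and 2 to 4 leaving out 1 (1.04% to 3.06%). For the difference of the genotype effects the 2 calls (0.106%) became 0 with probes well above background on all arrays (0.363%), which leaves out Gbp2b. They became 2 to 3 leaving out 1 (0.0251% to 0.305%). For the named probes the alternatives followed the range of series means, which is never negative and so has no direction that could turn. In 21 of these refits a named probe that was not called as reported passed the F-test. No paired analysis was possible because the labels give clone names and no replicate number, and a digit that recurs in names of different series, as in 979B1 and 979F1, ties no clones together.

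Signals near background limit the members that are off in some clones, whose log2 differences rest on background readings. Series 967B, 979F and their slides cannot be told apart, and the experiment of 981E1, 981E4 and 981E5 is uncertain.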

Other observations

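The following genes of the pathway list were chosen after their values were seen and do not stand for the list. Ifi204, an interferon-induced DNA sensor, read -7.36 in 967B4 (background) and between -2.38 and 0.62 in the other clones. Ifi27 read -5.12 in 967B4 (background) and between -0.08 and 2.91 elsewhere. The first probe of Herc6, an enzyme that joins Isg15 to proteins, read -6.53 in 967B4 (background) and between -4.41 and -2.73 elsewhere, and Rtp4 read -5.47 there (background) and between -3.13 and -1.54 elsewhere. B2m, the light chain of class I molecules, was lowest in 967B4 (1.57) and highest in 981E4 (3.58), while H2-K1, a heavy chain, was at 3.05 in 967B4 by its brighter probe, within the range of the other clones.

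Socs3, a feedback inhibitor of Janus kinases, was read as background (-6.89) on the array of 979F1 and between 3.77 and 5.03 on the other 11 arrays, by its single probe.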
